A study of Mus musculus with 12 samples.

Results

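The gene table lists 119 rows for small nucleolar RNAs and their Cajal-body relatives, taken as symbols that begin with Snora, Snord or Scarna and a digit, of 23997 rows in all. Of these 119 rows, 21 had an FPKM (fragments scaled by transcript length and library size) above 0 in at least 3 of 12 libraries, and they are described here. The 21 were chosen by these measured values, so that their detection is a description and no test of it is given. They comprise 18 of 36 Snora rows, 3 of 74 Snord rows (Snord16a, Snord17 and Snord22) and 0 of 9 Scarna rows. At the edge of the rule, Snora23, Snora33 and Snord16a were above 0 in exactly 3 libraries, while Snora34, Snora43, Snora52, Snora5c and Snord8 were above 0 in 2. Another 16 rows were above 0 in 1 library and 77 in none.

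Small nucleolar RNAs are short nuclear RNAs that guide the chemical modification of ribosomal and spliceosomal RNA. The H/ACA class (Snora) guides the conversion of uridine to pseudouridine with the enzyme dyskerin, and the C/D class (Snord) guides 2′-O-methylation with fibrillarin. In mammals most are cut out of the introns of host genes, often genes for ribosomal proteins or long non-coding RNAs, and the mature RNAs carry no poly(A) tail.

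RNA came from cumulus cells, the granulosa-lineage cells around the oocyte, of C57BL/6J female mice that lacked the mitochondrial protease subunit ClpP (ClpP-/-, here KO) or were wild type (WT), at an age of 3 or 6 months. Each of the 4 groups held 3 libraries, each made by Smart-Seq2 and Nextera XT from 100 cells of 1 mouse and read as 75 bp pairs. Follicle growth had been stimulated in every mouse with pregnant mare serum gonadotropin (5 IU), and the time from injection to collection is 44 h in the treatment protocol but 48 h in the series description. The labels also give a passage, P1, for these cells, and the comparisons ask what changes in them without ClpP and with age.

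The sequences below are those of the rows whose zeros or fragment numbers the results turn on, with Snord17 as the longest C/D row. They were cut from GENCODE M21 transcripts on GRCm38 over the RefSeq span (for Snora78 over the GENCODE span), 5′ to 3′. Capitals mark ACA with 2 to 4 bases after it at the 3′ end, the mark of the H/ACA class, or CTGA (box D) within the last 20 bases.
Snora65: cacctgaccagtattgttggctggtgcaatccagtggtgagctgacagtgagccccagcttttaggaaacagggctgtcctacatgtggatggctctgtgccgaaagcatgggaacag
Snora15: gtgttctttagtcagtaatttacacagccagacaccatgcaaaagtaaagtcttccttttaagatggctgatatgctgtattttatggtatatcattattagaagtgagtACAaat
Snora75: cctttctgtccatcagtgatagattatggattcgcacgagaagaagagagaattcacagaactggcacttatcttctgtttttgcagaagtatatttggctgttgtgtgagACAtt
Snora30: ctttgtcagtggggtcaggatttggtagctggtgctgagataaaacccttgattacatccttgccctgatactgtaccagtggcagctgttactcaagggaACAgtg
Snora78: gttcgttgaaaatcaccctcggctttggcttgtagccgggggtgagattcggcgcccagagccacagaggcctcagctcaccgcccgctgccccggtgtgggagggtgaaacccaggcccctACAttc
Snora81: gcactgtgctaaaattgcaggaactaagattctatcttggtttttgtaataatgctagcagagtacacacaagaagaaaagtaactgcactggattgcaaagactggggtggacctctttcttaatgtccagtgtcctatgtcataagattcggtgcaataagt
Snord17: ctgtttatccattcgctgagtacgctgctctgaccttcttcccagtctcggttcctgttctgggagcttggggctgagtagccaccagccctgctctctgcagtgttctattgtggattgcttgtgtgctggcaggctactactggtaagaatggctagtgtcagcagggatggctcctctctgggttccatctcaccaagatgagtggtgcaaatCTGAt

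Rows on chromosome 18, such as Snora74a and Snord58b, and rows without a matched sequence were left out of the counts that follow. Read on the transcribed strand only, ACA at that distance from the end stood in 16 of 18 Snora members (88.9%). Among the other Snora rows counted it stood in 14 of 17 (82.4%). The exceptions among the members were Snora65 and Snora81, and this count turns on the window: the annotated Snora65 span ends 1 base after an ACA, and with 1 to 4 bases allowed after the motif, a window tried after that was seen, it stood in 17 of 18 members and 15 of 17 other rows. CTGA stood in 3 of 3 Snord members and in 67 of 68 other Snord rows (98.5%). TGATGA (box C) within the first 25 bases stood in 0 of 3 Snord members and in 26 of 68 other Snord rows (38.2%).

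On GRCm38, Snora65 lies at chr2:32963301-32963418 (plus strand) in an intron of Rpl12, which encodes a protein of the large ribosomal subunit. Snora15 lies at chr5:129794561-129794676 (plus strand) in Cct6a, which encodes a subunit of the TRiC chaperonin, and 102 of its 116 bases overlap an annotated Cct6a exon. Snora30 lies at chr7:127527897-127528003 (plus strand) in an intron of Srcap, a chromatin remodeller. Snora75 lies at chr1:86351170-86351285 (minus strand) in an intron of Ncl, the gene of nucleolin. Snora81 lies at chr16:23110770-23110933 (plus strand) in an intron of Eif4a2, which encodes an RNA helicase of translation initiation. Snora78 lies at chr17:24719676-24719803 (minus strand, GENCODE span) in Snhg9, a non-coding host gene, with Rps2 on the opposite strand. Its RefSeq span, from which its fragments were derived, runs to 24719832 and is 157 bases long. The sources used here do not say whether the authors counted by strand. Snora65, Snora75 and Snora81 also overlap exons of retained-intron transcripts. In this table, fragments of the released small RNA and of unspliced host RNA cannot be told apart. Where a row overlaps a host exon, as Snora15 does, spliced host RNA cannot be told apart from them either.

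Length separated the rows that were seen from those that were not. Of the 61 rows under 85 bases, 4 (6.56%) were above 0 in any library, against 5 of 16 from 85 to under 100 bases. From 100 to under 120 bases 12 of 16 (75.0%) were above 0, from 120 to under 150 bases 15 of 19 (78.9%), and from 150 bases on 6 of 7 (85.7%). The median RefSeq length was 119.5 bases for Snora rows and 68 bases for Snord rows, so class and length went together. The share of the class difference that goes with length was not tested.

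**Figure D1:**
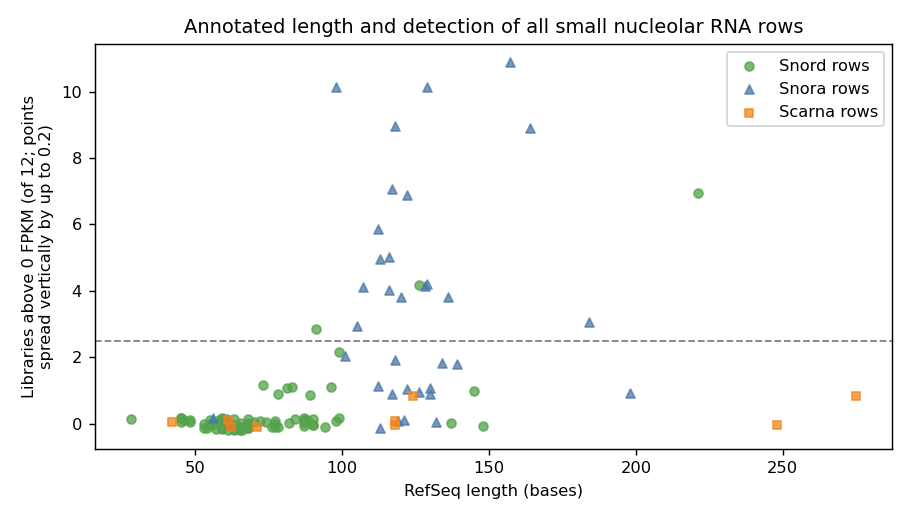
Each point is 1 of the 119 rows, by its RefSeq length in bases and the number of the 12 libraries in which it was above 0 FPKM; the dashed line lies between 2 and 3 libraries, the limit of the rule. Snord rows cluster at short lengths and 0 libraries, and 4 of 61 rows under 85 bases were seen at all.

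The deposited FPKM values of these rows were close to whole multiples of a step, the FPKM that 1 fragment was worth in that library at that length. Rows of equal length show it directly. In 6-month KO libraries 1, 2 and 3, Snora15 stood at 27.1, 28.4 and 56.6 FPKM and Snora75, also 116 bases long, at 54.2, 56.8 and 28.3 FPKM, a ratio of larger to smaller of 2 in each. With steps fitted to short rows by library and RefSeq length, 109 of the 110 member values of up to 4 fragments (99.1%) lay within 0.1 of a whole number. Members had entered that fit. Values above 4 fragments were left out of this share, and several of them missed the limit of 0.1. In 6-month WT, Snora78 stood at 8.81 steps in library 3 and Snora81 at 9.84 steps in library 2. They are given below as 9 and 10 fragments. The largest deviation of a member value from its whole number was 4.41% of that number. With steps fitted to other short rows only, 98 of 110 (89.1%) lay within 0.1, and 122 of all 123 values above 0 rounded to the same whole number. The starting values of this second fit still came from all short rows, members included. With GENCODE lengths in place of RefSeq lengths, 99 of 191 values over 80 short rows (51.8%) were near a whole number, against 192 of 198 (97.0%).

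At a length of 120 bases 1 fragment was worth 7.38 FPKM in library 1 of 3-month KO, 14.2 FPKM in library 1 of 3-month WT and 20.4 to 24.1 FPKM in the other 10 libraries. The spacing of low values of all genes put relative sequencing depth between 0.641 (library 3 of 6-month WT) and 1 (library 1 of 3-month KO). The steps of these 2 libraries with small values thus differed from the rest by more than depth did.

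**Figure D2:**
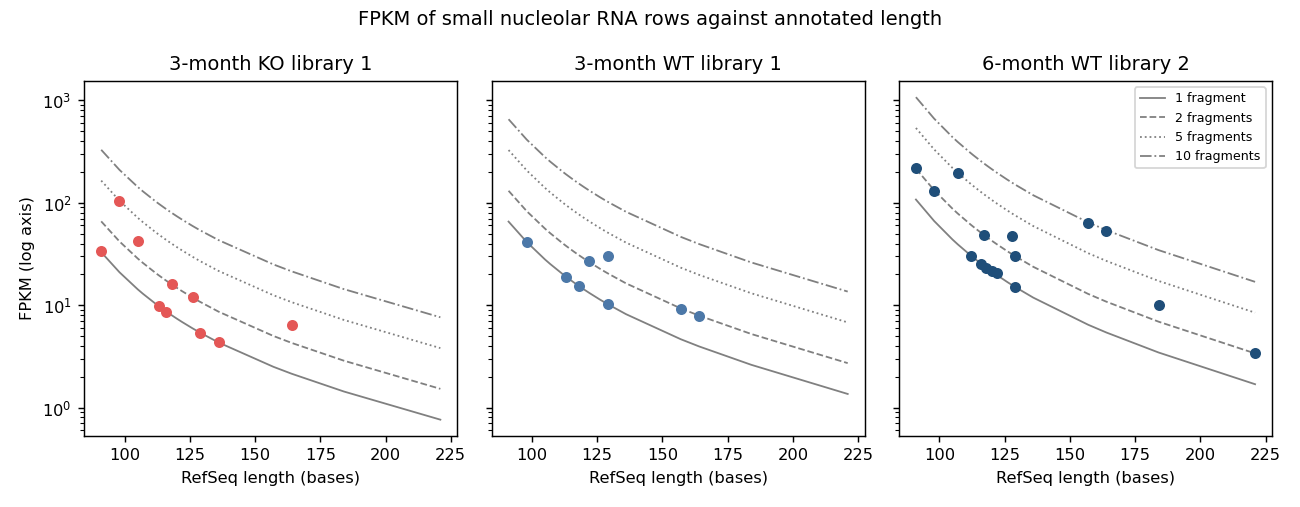
FPKM (log axis) of the small nucleolar RNA rows above 0 against RefSeq length in 3 libraries, with grey lines at the FPKM of 1, 2, 5 and 10 fragments. Points sit on or between lines at whole numbers of fragments, and the lines lie lower in 3-month KO library 1, where 1 fragment at 120 bases was worth 7.38 FPKM.

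Across 21 rows and 12 libraries there were 252 values, of which 129 (51.2%) were 0. Of the 123 values above 0, 64 (52.0%) were 1 fragment, 33 were 2 fragments and 26 were 3 or more. The values added up to 269 fragments, the highest single value was 10, and 9 rows never exceeded 2 fragments. A count of 0 allows up to 3 fragments, here taken over a group, and covers counting error only.

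**Figure D3:**
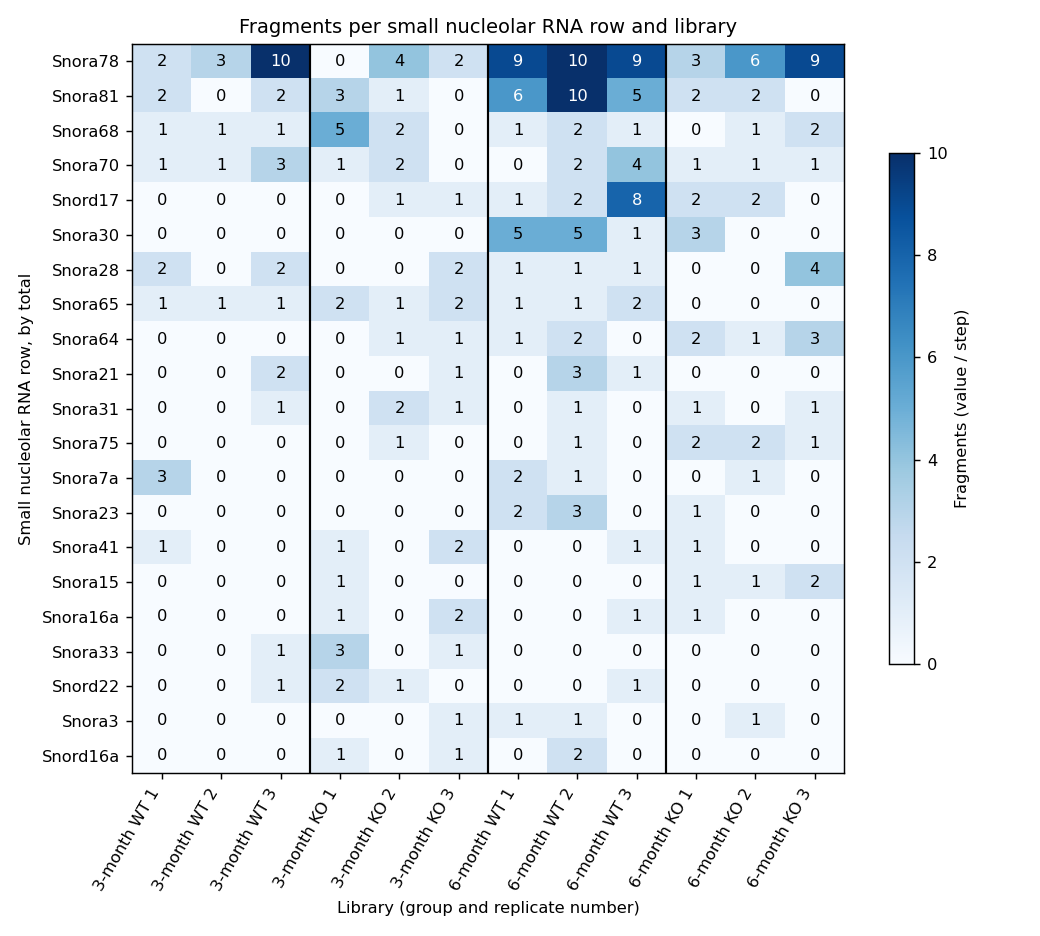
Number of fragments (FPKM divided by the step) in each of the 21 rows and 12 libraries, with rows ordered by total and black lines between groups. Most cells hold 0 or 1, Snora78 and Snora81 hold the highest values, and Snora65 is at 0 in the 3 libraries of 6-month KO.

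The rows together had 13, 6 and 24 fragments in 3-month WT libraries 1 to 3, and 20, 16 and 17 in 3-month KO. At 6 months they had 30, 47 and 35 fragments in WT and 20, 18 and 23 in KO. Per unit of relative depth the group totals were 19.2 in 3-month WT, 20.7 in 3-month KO, 44.5 in 6-month WT and 25.3 in 6-month KO. Snora78 and Snora81 gave 49 of the 112 fragments of 6-month WT, and without them the group totals per relative depth were 10.7, 16.8, 25.03 and 16.2 in the same order. These 2 rows were set apart after their values were seen. The share of values at 0 was 65.1% in 3-month WT, 49.2% in 3-month KO, 38.1% in 6-month WT and 52.4% in 6-month KO. In these bulk samples, fewer cells of a type and less RNA per cell cannot be told apart.

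Clpp, the deleted gene, stood at 88.2 to 146 FPKM in WT and at 0.769 to 6.63 FPKM in KO libraries. All 12 granulosa and cumulus markers were in the table, with a summed level of 3878 to 10710 FPKM per library. The 10 theca and stromal markers summed to 161 to 2933 FPKM in 3-month WT, 139 to 10096 in 3-month KO, 265 to 3716 in 6-month WT and 243 to 15211 in 6-month KO, with library 3 highest in each group. The 9 blood and leukocyte markers in the table also peaked in library 3 of each group, at 521 to 1320 FPKM against 5.81 to 65.1 FPKM in the others, and 2 of them were at 0 throughout 3-month WT. Oocyte markers summed to at most 250.2 FPKM, in 6-month KO library 3, and endothelial markers to at most 24.3 FPKM. Results below are also given where the call changes without 3 of these libraries (3-month KO library 3 and library 3 of both 6-month groups), a set that leaves in 3-month WT library 3, and without library 3 of every group, an alternative added after seeing the data.

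Snora65, Snora15 and Snora30 are described for their zeros, a pattern for which they were singled out, so the limma values beside them are a description. Snora65 stood at 15.3, 24.7 and 23.6 FPKM in 3-month WT and at 15.9, 22.3 and 48.4 FPKM in 3-month KO. At 6 months the WT libraries held 26.2, 23.2 and 50.5 FPKM, and each of the 3 KO libraries was at 0. All 9 libraries outside 6-month KO were thus above 0, with 1 or 2 fragments each. The group totals were 3 fragments in 3-month WT, 5 in 3-month KO, 4 in 6-month WT and 0 in 6-month KO, and the last allows up to 3 fragments. The log2(FPKM + 1) difference of KO from WT at 6 months was -5.02 (SE 0.42, n = 3 per group, limma adjusted p = 0.000592), and at 3 months it was 0.31 (SE 0.42, limma adjusted p = 0.892). The SE rests on the spread of log values within groups, which was 0 in 6-month KO. Neither the SE nor the p-value measures counting error, here and for the rows below. Against a group at 0 the size of the KO difference at 6 months depends on the pseudocount and is no bound. With a pseudocount of 10 it was -2.06 and did not pass (limma adjusted p = 0.0895), and it passed in the other 22 of 23 alternatives, among them without library 3 of every group (-4.68, limma adjusted p = 0.00546).

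Snora15 stood at 27.1, 28.4 and 56.6 FPKM in 6-month KO, while the 3 libraries of 6-month WT were at 0. At 3 months it was 0 in WT and 8.62, 0 and 0 FPKM in KO. Only KO libraries held it, with 4 fragments in 6-month KO and 1 fragment in 3-month KO. The log2 difference of KO from WT at 6 months was 5.18 (SE 0.71, n = 3 per group, limma adjusted p = 0.0356), a size that depends on the pseudocount (2.19 with 10 and 8.46 with 0.1). It passed in 8 of 23 alternatives. The call was lost when any 1 of 9 libraries was left out (every WT library and every 6-month KO library, limma adjusted p up to 0.271), with the difference at 4.85 to 5.36. Without the 3 marker-high libraries named above, and without library 3 of every group, the difference was 4.85 and did not pass (limma adjusted p = 0.649 and 1.00). It was also not called with a pseudocount of 0.1 (limma adjusted p = 0.268), with no filter (0.172), with a filter at 5 FPKM (0.0619) or with each value set to its fragments at a common step (0.561).

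Snora30 stood at 219, 194 and 42.0 FPKM in 6-month WT and at 125, 0 and 0 FPKM in 6-month KO, and at 0 in all 6 libraries of 3 months. In fragments these were 5, 5 and 1 in 6-month WT against 3, 0 and 0 in 6-month KO, so the 6-month groups overlapped. The log2 difference of KO from WT at 6 months was -4.61 (SE 1.44, limma adjusted p = 1.00). Without 6-month KO library 1, the single KO library above 0, it was -6.94 and passed (limma adjusted p = 0.00149). Between 3 and 6 months in WT the log2 difference was 6.94 (SE 1.44, limma adjusted p = 0.664), with 0 against 11 fragments. That difference passed without 6-month KO library 1 (limma adjusted p = 0.000232) and with only the 6 WT libraries fitted (limma adjusted p = 0.00412).

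**Figure D4:**
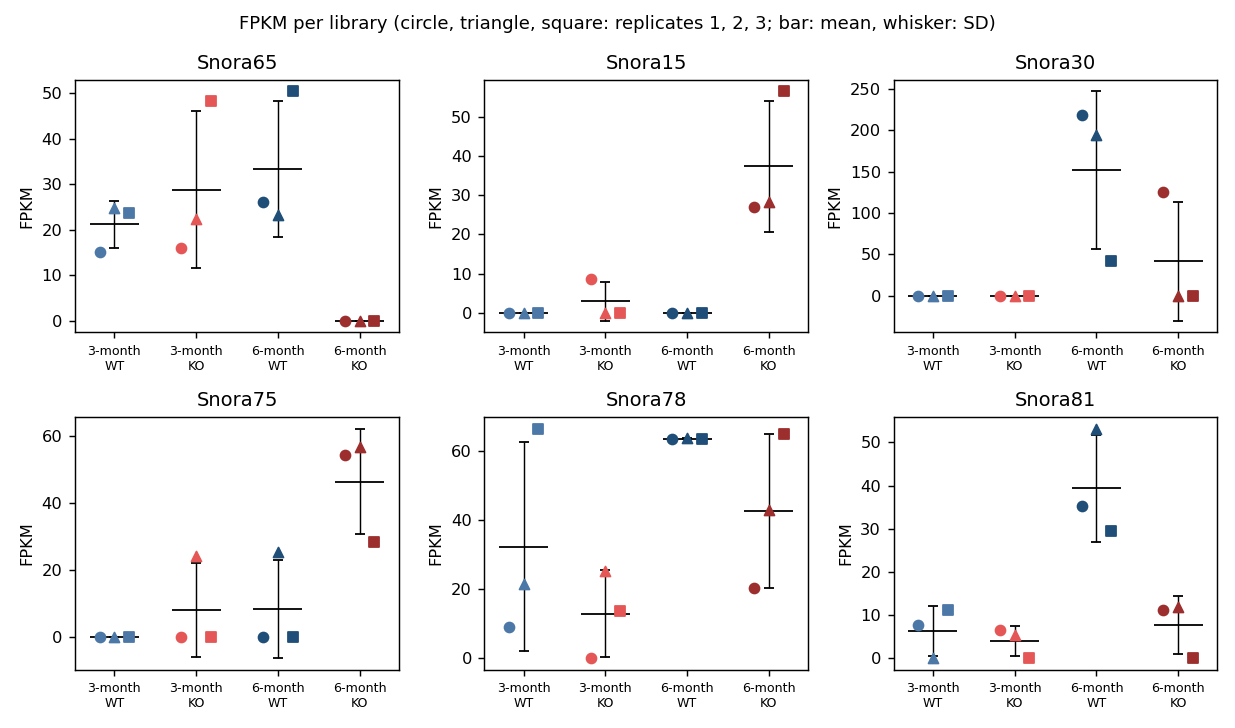
FPKM of 6 rows in each library by group, with circles, triangles and squares for replicates 1, 2 and 3, bars at the group means and whiskers of 1 SD (n = 3). Snora65 lies at 0 in all 3 libraries of 6-month KO, Snora15 is above 0 only in KO libraries, and Snora30 is at 0 in all 6 libraries of 3 months.

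Snora75 and Snora81 were the other rows whose 6-month groups did not overlap in FPKM. Snora75 stood at 0, 25.3 and 0 FPKM in 6-month WT and at 54.2, 56.8 and 28.3 FPKM in 6-month KO. In fragments these were 2, 2 and 1 in KO against 0, 1 and 0 in WT, which overlap at 1, and the log2 difference was 3.93 (SE 1.32, limma adjusted p = 1.00), which did not pass. Snora81 stood at 35.3, 53.2 and 29.5 FPKM in 6-month WT and at 11.3, 11.9 and 0 FPKM in 6-month KO. It was the best-covered row among the 4, with 21 against 4 fragments, and its log2 difference of -2.86 (SE 1.14, limma adjusted p = 1.00) did not pass.

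Snora78 had the most fragments, 67 in all. Its values in libraries 1 to 3 were 2, 3 and 10 fragments in 3-month WT, 0, 4 and 2 in 3-month KO, 9, 10 and 9 in 6-month WT and 3, 6 and 9 in 6-month KO. The 6-month WT libraries lay at 63.7, 63.7 and 63.4 FPKM, while the other groups spread from 0 to 66.6 FPKM. Its log2 difference of KO from WT was -0.71 (SE 1.02) at 6 months and -1.78 (SE 1.02) at 3 months, and neither passed (limma adjusted p = 1.00 and 0.774).

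Snora68 and Snora70 were each above 0 in 10 of 12 libraries with 17 fragments. Snora68 stood at 41.0, 67.1 and 64.6 FPKM in 3-month WT and at 73.8, 130.4 and 70.5 FPKM in 6-month WT. These FPKM groups did not overlap, but in fragments they were 1, 1 and 1 against 1, 2 and 1. In KO, Snora68 had 5, 2 and 0 fragments at 3 months and 0, 1 and 2 at 6 months. Snora70, in Rpl10, had 1, 1 and 3 fragments in 3-month WT, 1, 2 and 0 in 3-month KO, 0, 2 and 4 in 6-month WT and 1, 1 and 1 in 6-month KO, and the groups overlapped in each comparison.

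Snord17, in Snx5, had 0 fragments in the 3 libraries of 3-month WT and 1, 2 and 8 in 6-month WT, so that 8 of 11 fragments came from library 3, which was high in markers of other cells. Their part in the value was not tested. Its log2 difference across age in WT was 2.57 (SE 0.73, limma adjusted p = 0.664) and did not pass. Snora64, in Rps2, stood at 0, 23.2 and 25.2 FPKM in 3-month KO and at 51.9, 27.2 and 81.3 FPKM in 6-month KO. In fragments these were 0, 1 and 1 against 2, 1 and 3, which overlap at 1. Snora28, in Eif5, had 13 fragments over 7 libraries, of which 4 were in library 3 of 6-month KO.

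The other 10 rows, Snora3, Snora7a, Snora16a, Snora21, Snora23, Snora31, Snora33, Snora41, Snord16a and Snord22, had 4 to 7 fragments each over 3 to 6 libraries. Their highest single value was 3 fragments. Snora33 was at 0 in all 6 libraries of 6 months, with 1 fragment in 3-month WT and 4 in 3-month KO. Snora21, Snord16a and Snord22 were at 0 in the 3 libraries of 6-month KO, which allows up to 3 fragments for each. Snord16a, the shortest member at 91 bases, reached 216.8 FPKM in library 2 of 6-month WT with 2 fragments.

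Over all tested genes, limma called 0.0268% for KO against WT at 6 months, and 2 of the 21 rows were called, Snora65 lower and Snora15 higher. At an unadjusted p under 0.05 were 5 rows (23.8%), against 1.22% of all genes. The rows were chosen by being above 0 in at least 3 libraries, some mainly through the group where they were high. Snora65 and Snora15 were also singled out for their zeros. The calls and shares given here and below are thus a description, and setting them beside all genes is no test. At 3 months 0 of 21 were called against 0.00893% of all genes, with 1 row (4.76%) at an unadjusted p under 0.05, against 6.80% of all genes. Averaged over both ages 1 of 21 was called against 0.0179% of all genes, namely Snora65 at -2.35 (SE 0.30, limma adjusted p = 0.0232). That call was lost in 8 of 12 fits that left out 1 library (library 1 or 2 of 3-month WT, library 2 of 3-month KO, any of 6-month WT, or library 2 or 3 of 6-month KO; limma adjusted p up to 0.132), and it passed in 12 of 22 alternatives. For the interaction of genotype and age 1 of 21 was called against 0.00893%, again Snora65, which was the only gene called. The shares of all genes include the rows themselves. The genes called for KO against WT were Snora65, Snora15 and Clpp at 6 months, Clpp at 3 months, and Snora65 and Clpp over both ages. Between 6 and 3 months 0 of 21 were called in WT against 0.00893%, with 5 rows (23.8%) at an unadjusted p under 0.05 against 7.44% of all genes. In KO 1 of 21 was called against 0.0179%, Snora65 at -4.75 (SE 0.42, limma adjusted p = 0.000539). The 2 comparisons at 6 months and across age in KO share the 6-month KO libraries.

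Groups did not overlap for 4 of 21 rows for KO against WT at 6 months, against 6.80% of all tested genes, and for 0 of 21 at 3 months against 10.2%. Across age they did not overlap for 4 of 21 rows in WT (Snora30, Snora68, Snora81 and Snord17), against 15.7% of genes, and for 4 of 21 in KO (Snora15, Snora64, Snora65 and Snora75), against 12.8%. The median log2 difference of the rows for KO against WT was 1.00 at 3 months (12 rows above 0) and -1.43 at 6 months (5 above and 15 below). That of all genes was 0.01 at both ages. Snora23 and Snora30 were at 0 in both 3-month groups, and Snora33 in both 6-month groups. For 6 against 3 months the median was 1.38 in WT (all genes 0.03) and 0.36 in KO (all genes 0.01). Most values of these rows were 0, 1 or 2 fragments, so these differences turn on zeros and on the pseudocount. The rows were also chosen by their detection, and their medians are not directly comparable with those of all genes.

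Each of the 21 rows lies within a gene on the same strand, and the 20 of those hosts that were in the table include 9 ribosomal protein genes. Srcap, the host of Snora30, was not analysed here. The host of Snora65, Rpl12, stood at 490 ± 173 FPKM (SD, n = 3) in 3-month WT, 471 ± 76.8 in 3-month KO, 540 ± 82.6 in 6-month WT and 530.5 ± 93.9 in 6-month KO. Rpl12 differed between KO and WT at 6 months by -0.03 (SE 0.27, limma adjusted p = 1.00), in the same libraries in which Snora65 went from 4 fragments to 0. The host of Snora15, Cct6a, stood at 300.1 ± 30.8 FPKM in 6-month WT and 247 ± 82.6 in 6-month KO, a log2 difference of -0.34 (SE 0.31, limma adjusted p = 1.00), while the Snora15 row was higher in KO.

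For the 9 rows above 0 in at least 6 libraries and with a host in the table, Spearman's rho between row and host over the 12 libraries had a median of 0.225 and was above 0 in 7. In the permutation test 0 of 9 had an adjusted p under 0.05, and 0 had an unadjusted one. The highest rho was 0.515, for Snora70 and Rpl10 (permutation p = 0.0899, adjusted p = 0.417, Pearson's r = 0.337 with permutation p = 0.287 and 0.349 without the 2 libraries farthest from the median of Rpl10). The lowest was -0.457, for Snord17 and Snx5 (permutation p = 0.138, adjusted p = 0.417, Pearson's r = -0.362 with permutation p = 0.246 and -0.015 without the 2 farthest libraries). Snora78 and Snhg9 had a rho of 0.434 (permutation p = 0.162, adjusted p = 0.417). The rows in these pairs held 0 to 10 fragments per library. The median rho was 0.0802 over all 20 rows with a host in the table and 0.366 over the 5 of them above 0 in at least 9 libraries, and the median Pearson's r of the 9 was 0.05. For deviations from the group means, Pearson's r of the 9 ran from -0.417 (Snora81 and Eif4a2) to 0.678 (Snora65 and Rpl12). Without removing group means, r for Snora65 and Rpl12 was 0.0022. The values within groups were not tested.

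The hosts of the members had a higher median level than those of the remaining rows, and the members also were longer. Mean host levels had a median of 391 FPKM for the 20 members with a host in the table, 26.7 FPKM for the 18 rows above 0 in 1 or 2 libraries and 77.7 FPKM for the 62 rows never above 0. Among rows of at least 100 bases the medians were 256 FPKM for 18 members, 24.04 FPKM for 12 rows above 0 in 1 or 2 libraries and 6.33 FPKM for 6 rows never above 0, so that the order of the last 2 classes turned. Among the members themselves, total fragments and mean host level had a Spearman's rho of 0.03 across 20 rows, a description over rows that share their libraries.

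**Figure D5:**
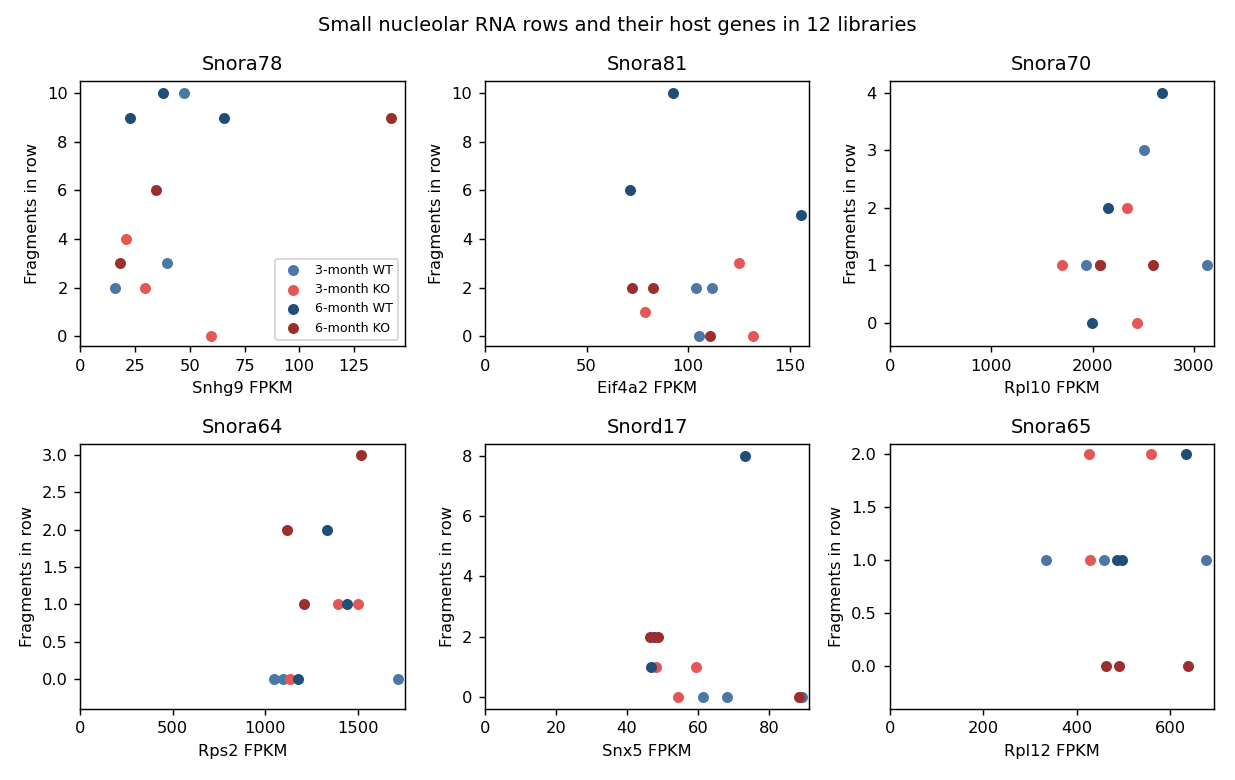
Fragments in 6 rows against the FPKM of the host gene in the same library, 12 libraries each, coloured by group. The 9 rows tested had a median rho of 0.225, and the 3 libraries of 6-month KO are at 0 for Snora65 while Rpl12 lies within the range of the other groups.

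Genes that make or carry small nucleolar RNAs gave 0 calls in any of the 6 comparisons, against 0.00893% to 0.0268% of all tested genes. With so few genes called, 0 calls says nothing particular about these lists. Of 30 listed C/D and H/ACA particle proteins and assembly factors 26 were tested, and their median log2 difference of KO from WT at 6 months was -0.07. The closest at 3 months was Znhit3, an assembly factor of C/D particles, at 107 ± 26.9 FPKM in WT and 67.9 ± 14.5 FPKM in KO (log2 difference -0.64, SE 0.24, limma adjusted p = 0.697). Of 25 genes of intron release and end trimming 23 were tested, with a median log2 difference of 0.02 at 3 months. The exosome subunit Exosc5 had their smallest p at that age, at 41.1 ± 11.3 FPKM in 3-month WT and 65.1 ± 8.19 FPKM in 3-month KO (log2 difference 0.68, SE 0.26, limma adjusted p = 0.690). Mphosph6 of the same list differed by -0.44. Of 24 non-coding host genes 17 were tested, with a median log2 difference of 0.02 at 3 months. Rian had their smallest p at that age, at 5.98 ± 1.55 FPKM in 3-month WT and 1.35 ± 0.21 FPKM in 3-month KO (log2 difference -1.55, SE 0.41, limma adjusted p = 0.656). Of 10 other short non-coding rows 4 were tested.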

How the data were processed

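The authors deposited 1 table of FPKM values for 12 libraries. Per the submitters' processing notes, which name tools without their roles, these were Cufflinks 1.2.1, TopHat2 2.0.10, SAMtools 0.1.18, Bowtie2 2.1.0, FastQC and cutadapt on GRCm38/mm10. The annotation and counting options are not given in the sources used here. Groups came from the labels, and each library is 1 mouse per the series description.

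From the table, log2(FPKM + 1) was fitted in limma 3.58.1 (R 4.3.3) with 4 group means over 12 libraries, eBayes with trend, on 11196 genes with at least 1 FPKM in at least 3 libraries, and p-values were 2-sided and adjusted by Benjamini and Hochberg over all of them at 0.05. The threshold, pseudocount and leaving out libraries were varied in 23 alternative settings. The step of 1 fragment per library was fitted on rows of 85 to 240 bases, with RefSeq lengths (119 of 119 rows matched) and a tolerance of 0.1, and relative depth on values under 0.2 FPKM. The limma fit and the step fit were tested on simulated data. Row and host were compared by Spearman's rho with 100000 permutations. Hosts came from GENCODE M21, and values of 1 host gene are not reported here. Python 3.11.15, pandas 2.3.3, numpy 2.4.6, scipy 1.17.1 and matplotlib 3.10.9 were used.

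The members and the gene lists were chosen with earlier results of these data known. The text names Snora65, Snora15 and Snora30, called rows, rows present throughout 1 group and absent from another, the rows seen most often, and up to 3 rows per direction by smallest p. Genes of the lists were also named by smallest p in the comparisons of genotypes. Whether same-numbered libraries are paired was checked by correlating their deviations from group means. Every pair was over 0.1 in the comparison of genotypes at 6 months (0.16, 0.37 and 0.47) and of ages in KO (0.11, 0.39 and 0.65). Library 3 was high in other-cell markers in these groups, the labels do not say what a number marks, and pairing and cell content cannot be told apart.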

Additional observations from a re-analysis of the deposited data

Results flagged for a closer look

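Snora65 is listed because its difference of KO from WT changed between ages. The row was singled out for its zeros, so the limma values given here are a description. The interaction of genotype and age was -5.32 on the log2(FPKM + 1) scale (SE 0.59, limma adjusted p = 0.0131, n = 3 per group). It rests on 4 fragments in 6-month WT, 0 in 6-month KO and 3 and 5 at 3 months. It kept its direction in all 22 alternatives that gave a value, and passed the threshold in 14 of them. Leaving out library 1 or 2 of 3-month WT, library 2 of 3-month KO, library 1 of 6-month WT or library 2 of 6-month KO ended the call (limma adjusted p from 0.0525 to 0.0754), as did leaving out library 3 of every group (0.0797), a pseudocount of 10 (1.00) and no filter on low values (0.0817).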

How the results depend on the processing

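The number of rows under the rule was 42 at 1 library and 9 at 6 libraries, against 21. For KO against WT at 6 months, where 2 rows were called, 1 was called with a pseudocount of 0.1 or of 10, with no filter, with a filter at 5 FPKM, without the 3 libraries with high markers of other cells and, in alternatives chosen after seeing the data, without library 3 of every group and with fragments at a common step. The row lost was Snora65 with a pseudocount of 10 and Snora15 in the others. Leaving out single libraries gave 1 to 2. Averaged over both ages, and for the interaction, where 1 was called, 0 were called with a pseudocount of 10 or no filter (for the interaction also without library 3 of every group), and leaving out single libraries gave 0 to 2. Across age in WT, where 0 were called, 1 was called with only the 6 libraries of that comparison, and leaving out single libraries gave 0 to 1. Across age in KO, where 1 was called, 0 were called with a pseudocount of 10, and leaving out single libraries gave 1 to 2. With the replicate number as a block (a pairing that the labels do not state) 2 rows were called at 6 months, and no other call changed.

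Differences that were not called changed direction for Snora31 across age in WT (0.077 rescaled without small RNA rows, 0.82 without the 3 libraries, 2.49 without library 3 of every group, -1.66 to 1.66 without single libraries), for Snora65 at 3 months (-0.13 without the 3 libraries, -0.043 without library 3 of every group, -0.13 to 0.64 without single libraries) for Snora70 across age in WT (0.0091 with a pseudocount of 10, -1.91 to 1.13 without single libraries) and for Snora70 at 3 months (0.00075 without library 3 of every group). The median rho of rows and hosts was 0.0977 to 0.288 without single libraries, 0.0802 over all 20 pairs and 0.366 over the 5 pairs of rows seen most often. The cause of these changes was not tested.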
